A study of Mus musculus with 7 samples.

Results

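The cells described here are natural killer (NK) cells sorted from the spleens of Cre control mice, 3 of the 7 RNA-seq libraries in a study of the homeobox gene Hhex. They were chosen by label alone: the 3 libraries titled Cre control, numbered replicates 1 to 3, were kept, and the 4 Hhex KO libraries enter no value below. Per the labels, the mice were of the C57BL/6 strain, and viable cells were taken ex vivo by the gate C45+CD3-Nk1.1+NKp46+CD49b+, in which the first marker is spelled as the labels spell it. The Cre driver, whether the controls carry a modified Hhex allele, the animals' age and sex, and whether animals were pooled are not stated in the labels or the series' design text. The series calls the samples biological replicates but does not tie each to a separate animal, so an SD below is the spread between these samples and may in part be technical.

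NK cells are innate lymphocytes that kill infected or transformed cells without prior priming. Whether an NK cell responds is set by the balance between activating receptors, which signal through adaptor proteins carrying immunoreceptor tyrosine-based activation motifs, and inhibitory receptors that recognise major histocompatibility complex (MHC) class I molecules. Killing is carried out by perforin and granzymes released from preformed granules, and by death ligands, while interferon gamma and chemokines alert other immune cells. Survival of these cells depends on interleukin-15, and their identity on the T-box factors T-bet and Eomes.

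Levels were measured as read counts per gene, with 13433133, 11482273 and 18456404 counts in replicates 1, 2 and 3. Because longer transcripts collect more reads, levels of different genes are compared only as TPM, counts divided by the length of the gene's merged exons and scaled so that each library sums to the same total. A gene is called on where it reached 1 TPM in all 3 libraries, off where it stayed below 1 TPM in all 3, and split otherwise. The same gene is compared between libraries in CPM, the count scaled to a fixed library total, with libraries adjusted by the trimmed mean of M values (TMM). Values written with ± are means and SDs over the libraries (n = 3), and values in threes follow the order of replicates 1, 2 and 3. A gene with 0 counts could still lie below the 3 counts that a count of 0 allows, which is 0.163 to 0.261 CPM depending on the library. This limit covers counting error only.

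Of 21865 protein-coding genes in the table, 10056 were on, which is 46.0%, while 612 were split and 11197 were off. No read was counted for 7922 of them in any of the 3 libraries. The genes that were on had a median of 27.7 TPM, 1688 coding genes averaged at least 100 TPM, and 123 at least 1000 TPM. The share of all coding genes on, 46.0%, is the background for each count of list members on given below. Lists close to it or under it included the granzymes at 50%, chemokine receptors at 34.8%, cytokines at 34.4% and chemokines at 24.3%, so these counts do not exceed the background by much or fall under it. ETS factors at 60%, SLAM receptors at 66.7% and integrin alpha chains at 72.2% lay above it. As a check on the threshold, the 1410 olfactory and vomeronasal receptor genes, which are sensory receptors not used by lymphocytes, contained a single gene that was on, Olfr56, at 2.20 TPM. Counts were spread over many genes: the 10 with the most counts held 5.31% ± 0.41 of a library, the top 100 held 19.4% ± 0.64 and the top 1000 held 54.1% ± 0.72 (SD, n = 3).

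All 4 markers of the cell type were on and high. Ncr1, which encodes the activating receptor NKp46 of the sort gate, stood at 2099.7, 1894 and 1842 TPM in the 3 libraries. Klrb1c, which encodes NK1.1, stood at 1958, 1797 and 1700.1 TPM. The libraries were close to each other for both genes, with the highest library 1.22 times the lowest for Ncr1 and 1.23 times for Klrb1c on the CPM scale. Eomes, the T-box factor that separates NK cells from type 1 innate lymphoid cells, was at 558, 560.1 and 689.8 TPM. Itga2, the integrin chain detected as CD49b, was at 167, 195 and 259 TPM, and Ptprc, which encodes CD45, was at 694, 673 and 805 TPM. Every positive marker of the gate was thus above 100 TPM in every library. Transcripts of the CD3 chains used for negative selection were nevertheless above the threshold: Cd3d was at 39.6 ± 11.4 TPM, Cd3g at 17.95 ± 4.5 TPM and Cd3e at 8.38 ± 1.8 TPM. In bulk samples such as these, fewer cells of a type and less RNA per cell cannot be told apart.

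Hhex, the homeobox gene that the study deletes in its other group, was expressed and even between the libraries. Its level was 59.4, 59.5 and 62.9 TPM, or 95.4, 94.1 and 94.4 CPM, which placed it at rank 2763 of the coding genes. The highest library was 1.01 times the lowest. Hhex lies at chr19:37434810-37440731, forward strand, in the GENCODE M21 annotation of GRCm38.

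**Figure D1:**
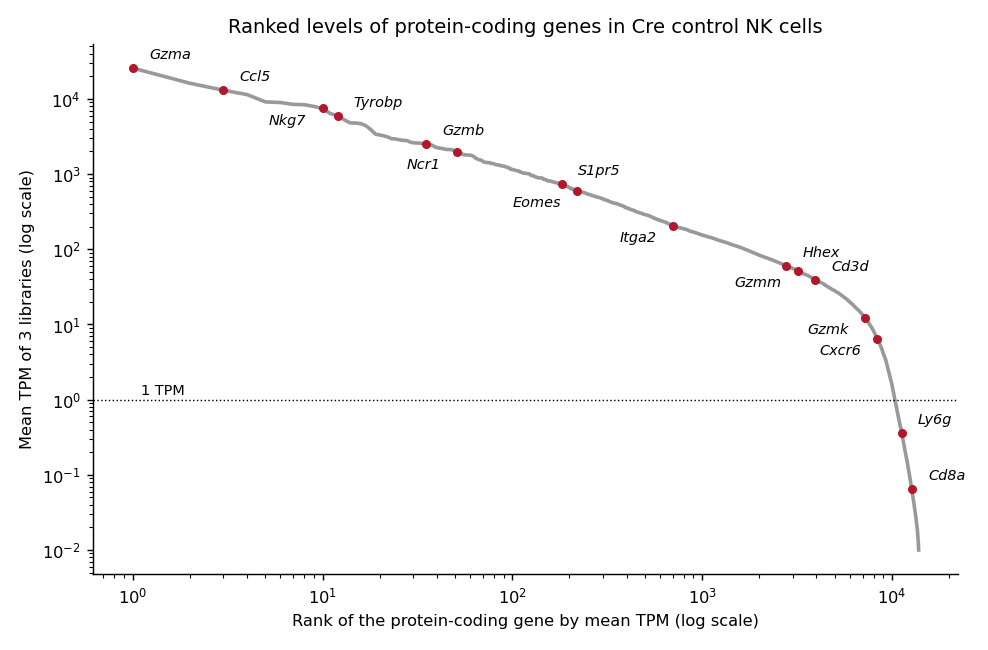
Mean TPM of protein-coding genes in the 3 Cre control libraries (log scale, genes of 0.01 TPM and above) against their rank (log scale), with named genes as red points and the 1 TPM threshold as a dotted line. Gzma has rank 1 and Ccl5 rank 3, Hhex lies at rank 2763, and Ly6g and Cd8a lie below the threshold.

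The single most abundant nuclear coding transcript was Gzma, the granule protease granzyme A. It was at 30092, 25180.5 and 21788 TPM, or 9619, 7924 and 6506 CPM, and alone held 0.963%, 0.797% and 0.647% of the counts of the 3 libraries. Replicate 1 was the highest and replicate 3 the lowest for Gzma, and the mean was 25687 ± 4175 TPM. Among the 30 most abundant nuclear coding genes outside ribosomal proteins and unnamed gene models, a large share were genes of NK function. They included Ccl5 at 13055 ± 284 TPM, Nkg7 at 7457 ± 534 TPM, Tyrobp at 5991 ± 564 TPM, Ccl4 at 2967 ± 784 TPM, Fcer1g at 2876 ± 158 TPM, Prf1 at 2802 ± 186 TPM, Klra4 at 2665 ± 172 TPM, Gzmb at 2532 ± 189 TPM, Ccl3 at 2462 ± 530.4 TPM, Il2rb at 2308 ± 230.0 TPM and Klrd1 at 2125 ± 219 TPM. The others of this top group were mainly genes every leukocyte uses heavily. Among them were Tmsb4x (thymosin beta 4, an actin-binding peptide) at 16146 ± 2070.1 TPM, B2m (the light chain of MHC class I) at 11420.2 ± 972 TPM, Actb (beta-actin) at 8455 ± 599 TPM, and the MHC class I heavy chains H2-D1 at 5279.9 ± 401 TPM and H2-K1 at 4770.3 ± 464 TPM.

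The Ly49 receptor genes that were on ranged from 24.1 to 2665 TPM. Ly49 receptors are encoded by the Klra genes of the NK gene complex and in C57BL/6 mice include both inhibitory receptors for MHC class I and activating members. Of 11 Klra genes, 9 were on. Klra4, the activating receptor Ly49D, was at 2863, 2554 and 2578 TPM, Klra8, the activating receptor Ly49H that recognises a cytomegalovirus protein, at 1767, 1564 and 1559.7 TPM, and Klra9, the inhibitory Ly49I, at 1631, 1394 and 1255 TPM. These leading genes kept their order in every library, and Klra4 was 1.64 ± 0.016 times Klra8. Below them came 3 inhibitory receptors, Klra7 (Ly49G) at 1110.2 ± 10.7 TPM, Klra3 (Ly49C) at 448 ± 27.7 TPM and Klra1 (Ly49A) at 308 ± 18.3 TPM, and then a lower tier of Klra6 at 60.8 ± 7.6 TPM, Klra10 at 34.1 ± 11.04 TPM and Klra5 at 24.1 ± 4.5 TPM. All 8 neighbouring pairs in this order of 9 genes had the same order in all 3 libraries. Klra17 was split, at 1.18, 0.232 and 1.70 TPM, and so was Klra2, at 0.247, 1.31 and 0.194 TPM; their products Ly49Q and Ly49B are known mainly from myeloid cells. These genes are near-identical in places: between 0% and 19.9% of the 75-base windows of a Ly49 gene that was on also occur in transcripts of another gene, so the split of reads between members is uncertain to that extent.

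The receptors that pair with CD94 were all expressed. Klrd1, which encodes CD94, was at 2375, 1967 and 2035 TPM. Klrc1, which encodes its inhibitory partner NKG2A, was at 615, 507 and 497 TPM, against 254, 179 and 201 TPM for Klrc2, the activating NKG2C, and 132 ± 18.02 TPM for Klrc3. Klrd1 was 3.95 ± 0.13 times Klrc1, and Klrc1 was 2.57 ± 0.22 times Klrc2. Klrc1 and Klrc2 share 25.1% and 11.4% of their windows with other genes, so this last ratio is uncertain. Klrk1, the activating receptor NKG2D for stress-induced ligands, was at 686, 573 and 643 TPM, and Klrg1, an inhibitory cadherin receptor, at 593, 529.6 and 479 TPM. The Klre1, Klri1 and Klri2 genes, whose products form heterodimeric receptors, were at 710.3, 77.4 and 902 TPM on average. Klrg2 had 0 counts in all 3 libraries. In the NKR-P1 group, Klrb1a at 379 ± 26.2 TPM, Klrb1f at 331 ± 10.9 TPM and Klrb1b at 256 ± 9.0 TPM were all lower than Klrb1c in every library. Clec2d, which encodes the ligand of the inhibitory receptor NKR-P1B, was itself on, at 383 ± 67.1 TPM, whereas Clec2e, Clec2g and Clec2h had 0 counts.

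**Figure D2:**
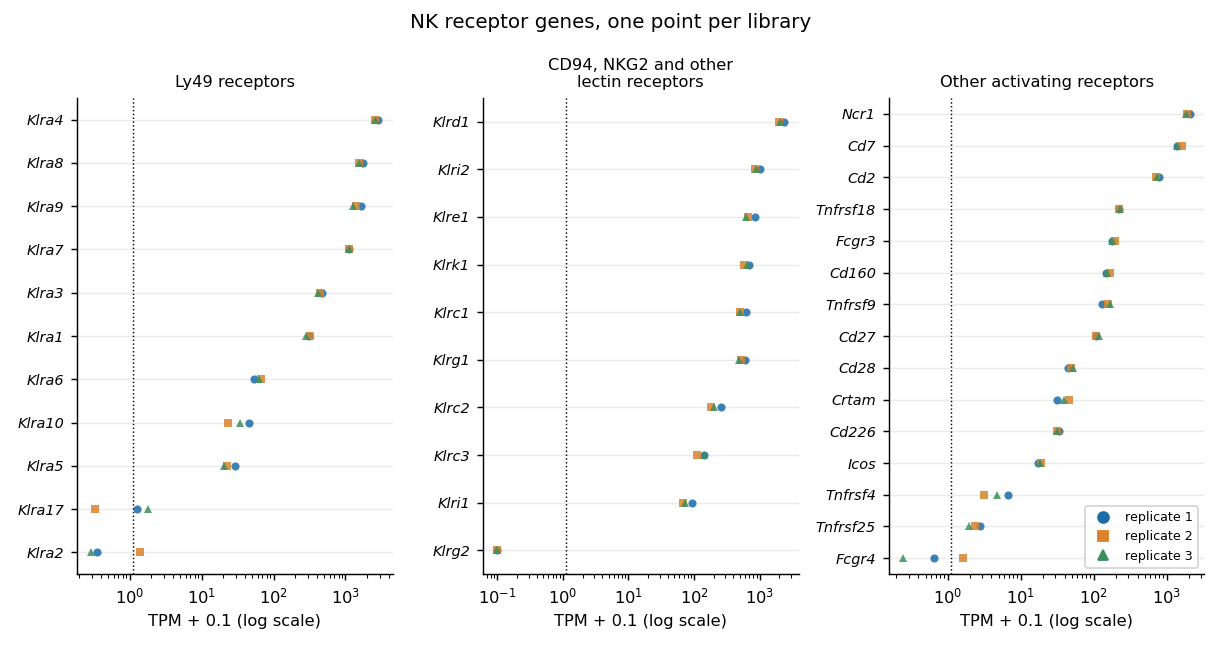
TPM + 0.1 (log scale) of the Ly49 genes, the CD94, NKG2 and other lectin receptor genes, and other activating receptor genes, with 1 point per library and a dotted line at the 1 TPM threshold. Symbols of the 3 libraries lie close together above about 10 TPM and spread apart for genes near the threshold such as Klra17, Klra2 and Fcgr4.

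Among other activating and costimulatory receptors, 14 of 15 genes were on. Cd7 was at 1473 ± 149 TPM and Cd2, an adhesion and costimulatory receptor, at 752 ± 35.2 TPM. Fcgr3, the low-affinity Fc receptor CD16 through which NK cells recognise antibody-coated targets, was at 179, 196 and 181 TPM, while Fcgr4 was split at 0.559, 1.54 and 0.146 TPM. Fcgr4 is chiefly a myeloid Fc receptor, and its highest library, replicate 2, was also the library highest in myeloid markers, as given below; the part of other cells in it was not tested. Tnfrsf9, the costimulatory receptor 4-1BB, was at 152 ± 18.1 TPM, Tnfrsf18 (GITR) at 225 ± 6.0 TPM, Cd160 at 155 ± 11.5 TPM and Cd226 (DNAM-1) at 32.2 ± 1.0 TPM. The inhibitory receptors that compete with DNAM-1 for nectin-family ligands were all higher than it in every library: Cd96 was at 222 ± 15.5 TPM and Tigit at 115 ± 34.6 TPM, and Pvrig was at 94.6 ± 6.6 TPM. The checkpoint receptor genes of exhausted T cells were much lower. Lag3 was at 17.5 ± 8.5 TPM, Havcr2 (TIM-3) was split at 0.516, 1.32 and 0.338 TPM, Ctla4 was split at 1.31, 0.475 and 0.552 TPM, and Pdcd1 (PD-1) was off at 0.0722 TPM on average. Of 9 SLAM family receptors, 6 were on, led by Cd48 at 957 ± 55.97 TPM, Ly9 at 298 ± 10.7 TPM and Cd244a (2B4, the receptor for CD48) at 246 ± 19.2 TPM. Slamf1, Slamf8 and Slamf9 were off.

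Of the 9 genes listed for adaptors that couple these receptors to kinases, 8 were on. The median was 94.7 TPM over those 8 and 39.6 TPM over all 9, and Tyrobp and Fcer1g were among the 30 most abundant genes given above. Tyrobp, which encodes DAP12 and serves activating Ly49 receptors, was at 6569.8, 5962 and 5442 TPM. Fcer1g, the Fc receptor gamma chain used by NKp46 and CD16, was at 2929, 3001 and 2698 TPM. Hcst, which encodes the NKG2D adaptor DAP10, was at 620.4, 655 and 589 TPM, and Cd247, the CD3 zeta chain, at 147, 152 and 151 TPM. Tyrobp was thus 2.08 ± 0.14 times Fcer1g and 9.64 ± 0.82 times Hcst, and Fcer1g was 19.2 ± 1.2 times Cd247. For Cd247, 53.5% of the 75-base windows also occur in another gene's transcripts, so its level is uncertain. All 3 SAP-family adaptors of SLAM receptors were on, with Sh2d1b1 (EAT-2) at 91.6 ± 4.6 TPM, Sh2d1a (SAP) at 61.98 ± 3.3 TPM and Sh2d1b2 at 3.70 ± 1.4 TPM.

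Of 33 proximal kinases, scaffolds and phosphatases, 28 were on. Among SRC-family kinases, Lck was at 1050.4, 939.6 and 905 TPM and Fyn at 591, 594 and 727 TPM, and Lck was the higher in each library, by 1.78, 1.58 and 1.25 times. Src, Yes1 and the B-cell kinase Blk were off. Both SYK-family kinases that bind phosphorylated activation motifs were on, Zap70 at 253 ± 13.2 TPM and Syk at 129 ± 14.3 TPM, a ratio of 1.97 ± 0.21. Plcg2 was 71.1 ± 16.8 times Plcg1, the other phospholipase C gamma, with levels of 201 ± 17.04 TPM and 2.90 ± 0.47 TPM. Vav1 led its family of guanine nucleotide exchange factors at 235 ± 19.9 TPM, 12.4 ± 0.86 times Vav3. Ptpn6, the phosphatase SHP-1 recruited by inhibitory receptors, was at 219.5 ± 7.3 TPM, and Inpp5d (SHIP-1) was at 168 ± 14.1 TPM.

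Of the 10 granzyme genes, 5 were on, and their levels spanned more than 3 orders of magnitude. Gzma was 10.1 ± 0.91 times Gzmb, which was at 2709.7, 2553 and 2333 TPM. Gzmm, a granzyme of innate lymphocytes, was at 49.6, 56.4 and 49.9 TPM, Gzmk at 11.6, 12.6 and 12.3 TPM and Gzmc at 7.33, 6.50 and 5.96 TPM. The order of these 5 genes was the same in every library. Gzme was off and Gzmd, Gzmf, Gzmg and Gzmn had 0 counts in all 3 libraries, so that of the granzyme genes neighbouring Gzmb on chromosome 14 Gzmc was the only other one that was on. No 75-base window of a granzyme gene that was on occurs in another gene's transcripts.

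All 17 genes listed for other granule contents were on. Prf1, which encodes the pore-forming protein perforin, was at 2950.0, 2864 and 2593 TPM, and Gzma was 9.13 ± 0.95 times Prf1. Nkg7, a granule membrane protein needed for degranulation, was at 7633, 7880.1 and 6857 TPM. Srgn, the proteoglycan serglycin that packs granzymes, was at 586 ± 32.9 TPM, and Serpinb9, which protects killer cells from their own granzyme B, was at 607 ± 88.7 TPM. Cma1, a chymase otherwise known from mast cells, was at 987, 994 and 880.0 TPM, while the mast cell and basophil genes Cpa3, Mcpt4, Ms4a2 and Fcer1a were off. Cathepsins Ctsd at 1517 ± 57.9 TPM, Ctsw at 1288 ± 22.2 TPM and Ctsc at 151 ± 3.9 TPM, the last being the enzyme that activates granzymes, were also on. In the exocytosis machinery, genes whose loss causes inherited haemophagocytic syndromes were all on: Unc13d (Munc13-4) at 142 ± 11.5 TPM, Rab27a at 123 ± 5.6 TPM, Stxbp2 (Munc18-2) at 93.4 ± 3.7 TPM, Stx11 at 73.5 ± 0.45 TPM and Lyst at 13.5 ± 4.0 TPM. The paralogs Unc13a, Unc13b and Unc13c were off. Baiap3, a Munc13-related gene, was at 125 ± 10.1 TPM, and Unc13d was 1.14 ± 0.099 times Baiap3.

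**Figure D3:**
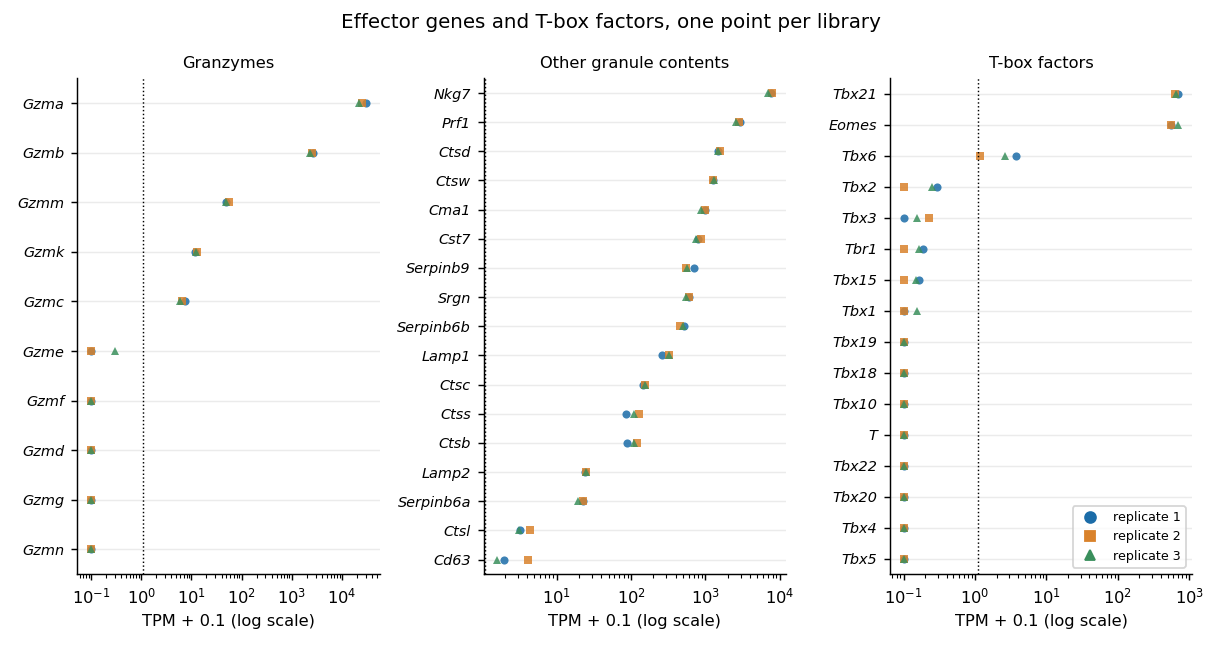
TPM + 0.1 (log scale) of granzyme genes, other granule contents and T-box factors, with 1 point per library and a dotted line at the 1 TPM threshold. The granzymes and the T-box factors separate into a few genes far above the threshold and a majority at or near 0, whereas all genes of other granule contents lie above it.

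Among 15 ligands of the TNF superfamily, 11 were on. Fasl, the ligand of the death receptor Fas, was at 617, 369.9 and 502 TPM, and Tnfsf10 (TRAIL), typical of immature NK cells and type 1 innate lymphoid cells, was at 20.9, 19.8 and 17.3 TPM. Tnf itself was low at 6.22 ± 0.56 TPM. Ifng, the main cytokine of NK cells, was at 641, 462 and 533 TPM, and it was 115, 70.1 and 82.03 times Tnf in the 3 libraries. Of 32 cytokine genes, 11 were on, among them Tgfb1 at 123 ± 7.9 TPM, Osm at 80.2 ± 18.8 TPM and Csf2 (GM-CSF) at 7.58 ± 2.6 TPM. Il17a, Il22, Il5 and Il13, products of other innate lymphoid cells, had 0 counts, and Il10 and Il6 were off.

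Chemokines were expressed as a few very high genes and a silent remainder. Of 37 chemokine genes, 9 were on, 5 of them at a threshold of 5 TPM, and 17 had 0 counts. Ccl5 (RANTES) was at 12875, 13381 and 12908 TPM and hardly differed between libraries. Ccl4 was at 3871, 2569 and 2462 TPM and Ccl3 at 3071, 2099 and 2217 TPM, and both were highest in replicate 1. The ratio of Ccl4 to Ccl3 was 1.26, 1.22 and 1.11, while the ratio of Ccl5 to Ccl4 was 3.33, 5.21 and 5.24. Xcl1 (lymphotactin), which attracts cross-presenting dendritic cells, was at 1544, 1245 and 1178 TPM. The next chemokine, Ccl9, was at 8.89 ± 1.9 TPM. Ccl3 and Ccl4 are inducible genes, and the same library was highest for most immediate-early genes, as given below; whether these go together beyond these 3 libraries was not tested.

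Receptors for the cytokines that sustain and prime NK cells were on, and their chains were far from equal. Il2rb, the beta chain shared by the IL-2 and IL-15 receptors, was at 2053, 2374 and 2498 TPM, 4.71 ± 0.36 times the common gamma chain Il2rg at 491 ± 56.4 TPM. Il15ra was at 9.08 ± 1.3 TPM and Il2ra, the chain that gives high-affinity IL-2 binding, was split at 1.07, 0.727 and 0.965 TPM. Il7r was at 30.9 ± 3.4 TPM, Il21r at 37.5 ± 0.72 TPM and Il4ra at 63.96 ± 6.7 TPM, and Il9r was off. Both IL-18 receptor chains were on, Il18rap at 529 ± 32.7 TPM and Il18r1 at 311 ± 51.6 TPM. Both IL-12 receptor chains were on, Il12rb2 at 254 ± 23.2 TPM and Il12rb1 at 43.7 ± 2.3 TPM. Il23r, Il1r1 and Il1rl1 (the IL-33 receptor) were off.

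The interferon gamma receptor was lopsided. Ifngr1, the ligand-binding chain, was at 941, 947 and 1004 TPM, whereas Ifngr2, the signalling chain, was split at 0.186, 1.40 and 0.439 TPM. No 75-base window of Ifngr2 occurs in another gene's annotated transcripts, and its counts were 3, 19 and 9 in the 3 libraries. The chains of the type I interferon receptor were nearly level, Ifnar1 at 99.1 ± 16.6 TPM and Ifnar2 at 86.6 ± 7.9 TPM. Il10ra and Il10rb were at 335 ± 16.7 TPM and 128 ± 8.9 TPM. For TGF-beta, Tgfbr2 was at 104 ± 13.2 TPM and Tgfbr1 at 26.9 ± 2.3 TPM. All 4 JAK kinases, all 7 STAT factors and all 8 SOCS-family inhibitors were on. Jak1 led the kinases at 937, 1018 and 1174 TPM, 12.01 ± 0.68 times Jak3. Stat6 led the STAT factors at 252, 257 and 269 TPM, followed by Stat4, which transmits IL-12 signals, at 159.7, 162 and 179 TPM. Stat5b was 2.53 ± 0.095 times Stat5a. Stat6 was also among the 10 genes of at least 20 CPM that differed least between the libraries. Of the inhibitors, Socs3 was the highest at 163 ± 33.3 TPM and Cish, a target of STAT5 that restrains IL-15 signalling, was at 6.61 ± 0.74 TPM.

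Receptors that place NK cells in blood and tissue were represented by a small set of genes. Of 23 chemokine receptor genes, 8 were on. Ccr2 was at 319, 342 and 358 TPM, Cxcr4, the bone marrow retention receptor, at 156, 153 and 325 TPM and Cxcr3 at 138, 197 and 165 TPM. Ccr2 led these 3 genes in every library, but the order of Cxcr4 and Cxcr3 changed between libraries, so these 2 did not differ beyond their spread. Cx3cr1, a marker of the most mature NK cells, was at 88.6 ± 5.1 TPM, Cxcr6 at 6.46 ± 2.0 TPM and the lymph node receptor Ccr7 at 3.65 ± 0.74 TPM. S1pr5, the sphingosine 1-phosphate receptor that lets NK cells leave bone marrow and lymph nodes, was at 709, 758 and 731 TPM, 5.84 ± 0.49 times S1pr1, the receptor T cells use. S1pr4 lay between them at 399 ± 35.5 TPM, S1pr2 was at 20.3 ± 1.1 TPM and S1pr3 was off.

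Of 18 integrin alpha chains, 13 were on, with Itgal, the LFA-1 alpha chain used to hold target cells, first at 1107, 1431 and 1461 TPM. Itga4 was at 479 ± 81.1 TPM, Itgax at 468 ± 145 TPM and Itgam, the CD11b chain of mature NK cells, at 136 ± 11.6 TPM. For Itgam, 65.2% of its 75-base windows also occur in another gene's transcripts, so its level is uncertain. Itgb2, the beta chain of LFA-1, was at 2929, 3317 and 3432 TPM, and its ratio to Itgb1 was 2.89, 2.87 and 2.88, among the steadiest of the ratios computed. Itga1 (CD49a) and Itgae (CD103), integrins of tissue-resident innate lymphoid cells, were low, at 1.40 ± 0.20 TPM and 1.89 ± 0.31 TPM. Selplg (the P-selectin ligand) was at 1063 ± 75.2 TPM and Cd69, an early activation and retention marker, at 28.9 ± 10.03 TPM.

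Of 29 transcription factors listed for the NK lineage, 27 were on, and Tox2 was off. Id2, the inhibitor of E proteins that innate lymphoid cells require, was at 1251, 1079 and 1140.0 TPM. Its relative Id3 was at 2.75, 6.80 and 4.31 TPM. Ets1 was at 511 ± 75.2 TPM, Tcf7 (TCF-1) at 413 ± 69.7 TPM, Nfil3, which acts early in NK development, at 159 ± 29.2 TPM, and Prdm1 (Blimp-1) at 83.1 ± 10.8 TPM. Zeb2, which drives terminal maturation, was at 46.3 ± 7.9 TPM, and Zfp683 (Hobit), a factor of resident lymphocytes, at 3.33 ± 0.29 TPM. Hhex, at 60.6 TPM, stood below Prdm1 and Gata3 (82.003 ± 7.1 TPM) and above Foxo1 (52.7 ± 8.8 TPM) and Zeb2 in mean level.

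Of 16 T-box genes, 3 were on. Tbx21 (T-bet) was at 702, 637 and 641 TPM and Eomes at 558, 560.1 and 689.8 TPM. Tbx21 was the higher in replicates 1 and 2 and Eomes in replicate 3, with ratios of 1.26, 1.14 and 0.930, so the 2 genes did not differ beyond the spread between libraries. The third, Tbx6, was at 2.42 ± 1.3 TPM, and 8 of the other genes had 0 counts. Runx3 was at 231 ± 27.9 TPM, 5.13 ± 0.61 times Runx1, and Cbfb, the partner of RUNX proteins, at 245 ± 21.1 TPM. Ikzf1 (Ikaros) was 3.01 ± 0.36 times Ikzf3 (Aiolos), at 618 ± 70.8 TPM and 207 ± 31.7 TPM. The IRF genes that were on were led by Irf8 at 367, 294 and 356 TPM. Of 17 KLF genes, 12 were on, led by Klf2, which maintains S1pr1 in lymphocytes and restrains proliferation. Klf2 was at 2466, 1739 and 2100.4 TPM, 3.71 ± 0.25 times Klf6. Factors of other blood lineages were near or below the threshold: Pax5, Ebf1 and Foxp3 were off, and Gata1, Cebpa and Cebpe were split. Zbtb7b, the CD4 T-cell factor ThPOK, was an exception at 57.5 ± 4.6 TPM, as was Tcf7.

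The promoters of the genes that mark NK function and of the broadly used regulators differed in their CpG content. CpG is the dinucleotide at which mammalian DNA is methylated, and promoters rich in it are typical of genes active in many tissues. The 250 bases upstream of the start site are shown for the receptor genes Ncr1 and Klra4 and the effector gene Gzmb, and for the regulators Klf2 and Id2, because they show both ends of this range at similar levels of transcript. Sequences are from RefSeq on GRCm38.p6, read 5′ to 3′ on the gene's strand, with each CpG in capitals. They lie at chr7:4337465-4337714, forward strand (Ncr1, upstream of the first of its 2 annotated starts), chr6:130067272-130067521, reverse strand (Klra4), chr14:56262335-56262584, reverse strand (Gzmb), chr8:72318812-72319061, forward strand (Klf2) and chr12:25096093-25096342, reverse strand (Id2), upstream of the RefSeq start of each gene. Starts in the GENCODE M21 annotation used for levels can differ. There Gzmb begins at position 56262260, some way past its window, and Klf2 at 72319033, inside its window.
Ncr1: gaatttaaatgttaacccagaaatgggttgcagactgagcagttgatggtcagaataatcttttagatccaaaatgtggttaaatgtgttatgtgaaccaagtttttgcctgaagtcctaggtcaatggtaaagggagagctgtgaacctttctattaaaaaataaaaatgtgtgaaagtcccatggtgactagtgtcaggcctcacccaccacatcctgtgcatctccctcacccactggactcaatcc
Klra4: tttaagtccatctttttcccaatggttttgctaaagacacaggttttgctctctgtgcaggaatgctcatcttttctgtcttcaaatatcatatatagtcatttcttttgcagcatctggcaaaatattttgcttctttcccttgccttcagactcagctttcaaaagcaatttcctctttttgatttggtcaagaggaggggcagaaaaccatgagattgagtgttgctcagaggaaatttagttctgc
Gzmb: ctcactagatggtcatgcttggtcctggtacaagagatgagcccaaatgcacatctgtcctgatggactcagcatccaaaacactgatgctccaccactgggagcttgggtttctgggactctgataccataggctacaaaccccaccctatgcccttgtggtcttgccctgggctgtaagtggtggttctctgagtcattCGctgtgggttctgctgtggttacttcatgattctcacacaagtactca
Klf2: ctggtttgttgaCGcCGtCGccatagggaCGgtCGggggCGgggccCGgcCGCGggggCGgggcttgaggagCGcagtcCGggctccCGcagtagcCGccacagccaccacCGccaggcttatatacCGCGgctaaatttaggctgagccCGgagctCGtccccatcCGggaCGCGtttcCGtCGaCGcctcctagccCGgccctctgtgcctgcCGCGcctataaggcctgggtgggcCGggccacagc
Id2: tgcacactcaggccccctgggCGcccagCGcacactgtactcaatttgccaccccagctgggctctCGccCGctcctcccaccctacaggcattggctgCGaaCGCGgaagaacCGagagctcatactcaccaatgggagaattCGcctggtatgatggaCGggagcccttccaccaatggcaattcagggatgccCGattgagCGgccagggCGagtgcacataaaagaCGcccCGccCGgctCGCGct

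The Ncr1 and Klra4 windows contain 0 CpG and the Gzmb window 1, against 29 for Klf2 and 18 for Id2. Their mean levels were 1945, 2665, 2532, 2102 and 1157 TPM, so high transcript levels were seen with either kind of promoter. A promoter window was found for 8073 of the coding genes that were on and 8004 of those that were off. The median was 16 CpG for genes on and 4 for genes off, and 21.96% of the former and 72.6% of the latter had fewer than 10. Read by family, the median CpG count over members that were on was 1 for the 9 Ly49 promoters found, 2 for 6 CD94, NKG2 and related receptors, and 4 for 15 granule genes. It was 22 for 10 KLF genes, 16.5 for 8 IRF genes, 19 for 24 proliferation genes and 18 for 57 ribosomal protein genes. Not every receptor or effector list was low and not every factor list high. The median was 18.5 for 10 genes of granule exocytosis, 17.5 for 8 receptors for interferons, IL-10 and TGF-beta, 17.5 for 3 growth factor receptors, and 8 for 3 T-box factors. Over all receptor lists, 51 of 68 promoters of genes that were on had fewer than 10 CpG, against 14 of 67 over all transcription factor lists. The windows of Prf1 and S1pr5, a migration receptor, had 4 and 22 CpG.

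A search of both strands of the same windows for short motifs found the RUNX motif TGTGGT in 11.1% of windows of genes on and 13.1% of genes off. The ETS motif CCGGAAGT was found in 6.61% and 1.03%, and it contains a CpG itself. The T-box motif TCACACCT was found in 0.711% and 1.34%. None of these 3 motifs contains another. Among the 5 windows shown, Ncr1 and Gzmb have 2 matches to the RUNX motif each, and the other 3 have 0; no window shown has an ETS or T-box match of these letters. A match describes letters only, not a bound site.

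Over all metabolic lists together, 250 of 296 members were on. This count goes beyond energy metabolism: it includes lipid synthesis, amino acid transport and 77 cytosolic ribosomal protein genes, all of which were on. In glycolysis, 20 of 33 genes were on. Of 11 glycolytic steps with more than 1 candidate gene, 7 drew over 90% of their summed TPM from a single gene. Aldolase came from Aldoa (99.7% ± 0.12), pyruvate kinase from Pkm (99.4% ± 0.68), lactate dehydrogenase from Ldha (99.8% ± 0.034) and enolase from Eno1 (94.3% ± 1.1). Ldhb, the heart-type lactate dehydrogenase, was off at 0.707 TPM against 310.2, 383 and 332 TPM for Ldha. Hexokinase came from Hk1 (88.9% ± 1.8), at 73.7, 84.4 and 94.9 TPM, followed by Hk3 (9.57% ± 1.2) at 6.74, 10.5 and 10.3 TPM, while Hk2, the hexokinase induced in activated lymphocytes, was split at 0.863, 2.09 and 1.51 TPM. Glucose uptake was shared by Slc2a1 (GLUT1, 52.6% ± 0.73) and Slc2a3 (GLUT3, 47.3% ± 0.73). Phosphofructokinase was shared by Pfkp (65.6% ± 0.43) and Pfkl (29.3% ± 1.2), and lactate export by Slc16a1 (57.8% ± 7.3) and Slc16a3 (32.8% ± 4.9). These shares are of length-scaled levels, and without the length the leading share was 35.0% for Slc2a1, 47.4% for Slc16a1 and 80.5% for Pfkp, so which transporter leads depends on the scale.

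**Figure D4:**
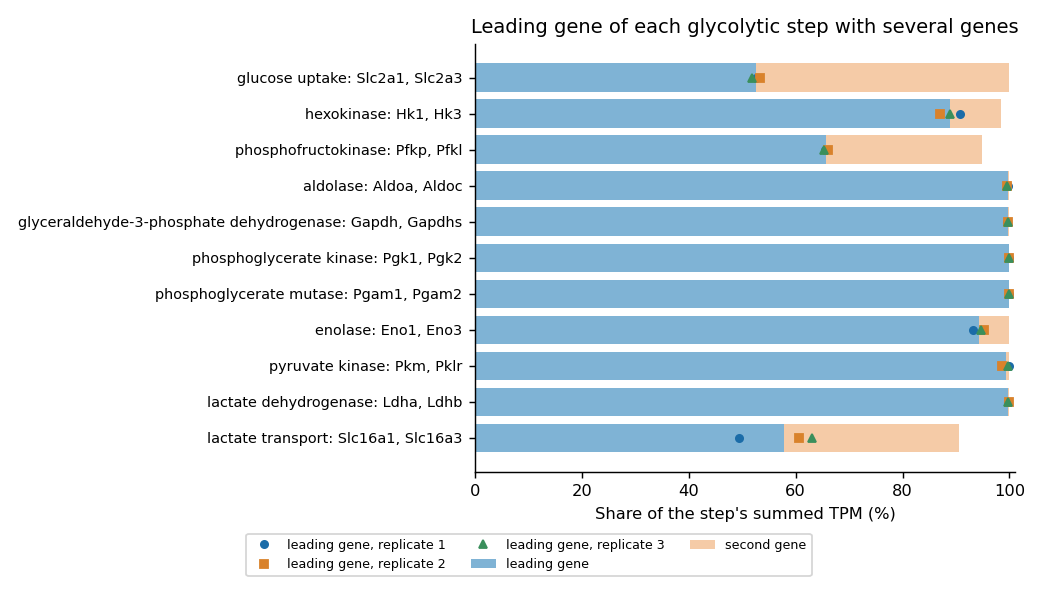
Share of the summed TPM of each glycolytic step (%) taken by its leading gene (blue bars, mean of 3 libraries) and second gene (orange bars), with the leading gene's share in each library as points. Steps from aldolase to lactate dehydrogenase are dominated by a single gene, and glucose uptake, phosphofructokinase and lactate transport are shared.

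Of 80 nuclear genes of oxidative phosphorylation, 75 were on, including all 37 listed for complex I, all 9 for complex III and all 16 for complex V. The 5 that were not on all belong to complex IV: Cox7a1 was split and Cox4i2, Cox7b2, Cox8b and Cox8c, isoforms of muscle, lung or testis, were off. Their common counterparts were high, with Cox8a at 1048 ± 104 TPM, Cox4i1 at 792 ± 63.5 TPM and Cox7a2 at 357 ± 48.6 TPM. In the tricarboxylic acid cycle and pyruvate dehydrogenase, 21 of 23 genes were on; Pdha2, a testis gene, had 0 counts and Pcx, pyruvate carboxylase, was split at 1.23, 0.874 and 1.55 TPM. For fatty acid oxidation 12 of 16 genes were on, with Cpt1a, the carnitine transferase of most tissues, at 69.5, 93.98 and 97.6 TPM and Cd36 and Ppara off. The cholesterol pathway was low throughout, with a median of 6.80 TPM over 17 genes. Its regulator Srebf2 was the highest at 45.1 ± 7.3 TPM, and Sqle (squalene epoxidase) and Fdps were off at 0.619 and 0.362 TPM. For amino acid uptake, Slc3a2 was at 151 ± 10.2 TPM and its partner Slc7a5, which rises on lymphocyte activation, at 13.98 ± 6.5 TPM; Slc7a11, the cystine transporter, had 0 counts. Of 77 cytosolic ribosomal protein genes, all 77 were on, with a median of 766 TPM.

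Mitochondrially encoded genes were read unevenly. Of 13 protein genes, 7 were on, led by mt-Co1 at 9124 ± 901 TPM, mt-Cytb at 7936 ± 549.5 TPM and mt-Nd1 at 6370.4 ± 626 TPM. By contrast mt-Co2, mt-Co3, mt-Atp6 and mt-Nd4l had 0 counts in all 3 libraries. For these 4 genes, 99.5%, 99.9%, 99.5% and 98.7% of the 75-base windows also occur in transcripts of another annotated gene, and the sources used here do not say how reads that fit several places were counted. mt-Atp8 also had 0 counts, although none of its windows is shared with another gene's transcripts. A value of 0 for a gene whose sequence is largely shared is therefore uncertain. Among coding genes, 194 that were on and 1379 that were off share more than 50% of their windows; the globins, Pgk1, Bcl2a1a, Bcl2a1b and Bcl2a1d, Hspa1a and Hspa1b are among those named here.

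Markers of cycling and of rest were both present, at very different levels. Btg1 and Btg2, antiproliferative genes of quiescent lymphocytes, were at 879.7 ± 126 TPM and 1369.5 ± 280.1 TPM, and the CDK inhibitors Cdkn2d and Cdkn1b (p27) at 292 ± 28.3 TPM and 132 ± 15.2 TPM. Mki67 was at 2.42, 3.38 and 8.87 TPM. Of 30 proliferation genes, 29 were on and Cdc6 was split, but the median of those on was 7.66 TPM against 27.7 for all coding genes that were on. At a threshold of 5 TPM, 13 of the 30 would be on. Higher members included genes of DNA replication, with Pcna at 199 ± 6.6 TPM, Mcm6 at 141 ± 27.6 TPM and Mcm5 at 91.5 ± 14.9 TPM. Mitotic genes such as Cdk1 at 5.46 ± 1.8 TPM, Birc5 at 5.85 ± 2.7 TPM and Ccnb1 at 2.18 ± 0.49 TPM were lower.

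The genes of apoptosis control were headed by a pro-survival member. Mcl1, which NK cells need to survive, was at 644, 667 and 722 TPM, 6.21 ± 0.69 times Bcl2 at 93.6, 107 and 131 TPM, and Bcl2l1 (BCL-XL) was at 63.7 ± 3.5 TPM. The effectors Bak1 and Bax were at 128 ± 8.3 TPM and 104 ± 6.3 TPM, and Bok had 0 counts. Among 8 BH3-only genes, 6 were on. Bcl2l11, which encodes the BIM protein named in the series title, was at 56.1, 60.2 and 71.03 TPM, or 143, 151 and 169 CPM. Bbc3 (PUMA) was at 67.2 ± 3.1 TPM, Bid at 58.2 ± 3.3 TPM and Pmaip1 (NOXA) at 14.3 ± 3.0 TPM; Bik was split and Hrk had 0 counts. Bcl2l11 was thus close to Bbc3 and Bid in mean level and below Mcl1 in every library.

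Genes that mark stages of NK maturation were all on. Of the 9 genes listed for immature cells, Thy1 was at 276 ± 32.5 TPM, Ctla2a at 189 ± 3.4 TPM, Cd27 at 111 ± 6.7 TPM and Kit at 48.7 ± 14.997 TPM, and the median was 63.3 TPM. Of the 9 listed for mature cells, the median was 534 TPM, with Prf1, Gzmb, Cma1, S1pr5 and Klrg1 at the top and Ly6c2 at 428 ± 56.99 TPM. The ratio of Cd27 to Itgam, which antibodies to CD27 and CD11b use to stage NK cells, was 0.863, 0.785 and 0.805 in transcripts. A bulk library holds all stages together, so these are averages. Of 10 markers listed for type 1 innate lymphoid cells, 9 were on (90%, against 46.0% of all coding genes), with a median of 6.46 TPM over those on. Il7r was the highest at 30.9 TPM on average, just above the median of 27.7 TPM for all coding genes on. Tnfsf10 averaged 19.3, Cxcr6 6.46 and Itga1 1.40 TPM.

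Some genes listed as markers of other cell types were well above the median of genes on. The share of members on ranged from 0% for basophil and mast cell markers to 75% for platelet and megakaryocyte markers, against 46.0% of all coding genes. Of 14 T cell markers, 8 were on (57.1%), with the constant-region genes Trbc1 at 564 ± 73.1 TPM, Trbc2 at 478 ± 16.6 TPM and Trdc at 99.2 ± 4.7 TPM. The others on were Trac, Cd28 and the CD3 chains given above, while Cd4, Cd8a, Cd8b1, Cd5, Cd6 and Themis were off. NK cells are known to transcribe unrearranged receptor loci; the share that T cells contributed was not tested. Of 12 B cell markers, 4 were on (33.3%), 1 was split and 7 were off. Ighm was at 387 ± 31.1 TPM and Igkc at 97.02 ± 56.1 TPM, and the lowest of those on was at 5.17 TPM. Those off included Ms4a1, Pax5 and Ebf1. Of 14 monocyte and macrophage markers, 8 were on (57.1%, against 46.0% of all coding genes), 5 were split and only Fcgr1 was off. The 14 markers summed to 59.7, 147 and 52.8 CPM, with Lyz2 at 32.2, 84.7 and 25.5 CPM and C1qa at 2.16, 4.33 and 1.53 CPM. Of 10 neutrophil markers, 5 were on (50%), 3 were split, and Ly6g and Csf3r were off. The 10 markers summed to 25.4, 68.4 and 28.7 CPM, with S100a9 at 10.3, 15.5 and 6.49 CPM. In replicate 2 both sums were more than 2 times those of the other libraries, and without that library the mean sums were 56.2 and 27.02 CPM in place of 86.3 and 40.8 CPM. Of myeloid markers that were on, 8 of 8 and 5 of 5 were highest in replicate 2, which is the highest library for 32.5% of all coding genes that were on. The 14 T cell markers summed to 534, 507 and 490.0 CPM. Summed CPM of different lists are not ranked here, because longer transcripts collect more reads. The 10 dendritic cell markers summed to 506, 819.7 and 869.7 CPM, lowest in replicate 1, and 6 were on. Nearly all of it was Itgax, the CD11c chain that NK cells also carry, at 466, 773 and 832 CPM, whereas Xcr1 had 0 counts and Flt3, Clec9a and Siglech were off. The 6 plasma cell markers summed to 155, 133 and 158 CPM, of which Prdm1, also a factor of NK cells, gave 146, 127 and 156 CPM; Jchain was at 8.63, 5.28 and 1.42 CPM, Sdc1, Mzb1 and Derl3 were off and Tnfrsf17 had 0 counts. The part of such cells in these values was not tested. The erythroid markers, mostly globins that share sequence, summed to 27.9, 28.2 and 6.22 CPM. Of 8 platelet and megakaryocyte markers, 6 were on, 1 was split and 1 was off, and they summed to 25.1, 42.1 and 47.5 CPM. All 6 on were lowest in replicate 1, the lowest library for 36.0% of all coding genes on. The part of platelets in these values was not tested. Pecam1, which leukocytes also carry, was the only stromal or endothelial marker that was on, and Col1a1, Kdr and Cdh5 were off. Xist, the RNA of the inactive X chromosome, was at 231, 102 and 178 CPM, and the 4 Y-linked genes Ddx3y, Eif2s3y, Kdm5d and Uty had 0 counts in every library.

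The 3 libraries resembled each other closely. Across the 11293 genes with a mean of at least 1 CPM, the Pearson correlation of log2(CPM + 1) was 0.985 between replicates 1 and 2, 0.991 between 1 and 3, and 0.991 between 2 and 3; these are across genes of the same tissue, and genes are not independent replicates. The common biological coefficient of variation, the spread beyond counting noise estimated by edgeR, was 12.9%. For the 6973 genes of at least 20 CPM, the median coefficient of variation was 8.54%, against 3.19% from counting alone. In only 66 of them, 0.947%, was the highest library more than 2 times the lowest, and 54 of the 66 were lowest in replicate 2. Replicate 2 was the lowest library for 2549 of all 6973 genes. Steady genes included Stat6, already described, and Tmem259, at 94.3, 94.4 and 94.3 CPM, and Zbtb2, at 59.9, 59.8 and 59.8 CPM; their coefficients of variation of 0.0682% and 0.112% were below the 2.71% and 3.40% of counting alone.

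The genes that differed most were of a few kinds. Fosb, an immediate-early transcription factor, was at 277, 62.4 and 118 CPM and was highest in replicate 1. The long genes Macf1 at 431, 125 and 379 CPM, Golgb1 at 48.1, 15.8 and 45.4 CPM, Akap9 at 52.4, 18.8 and 50.9 CPM and Kmt2d at 214, 88.7 and 218 CPM were all lowest in replicate 2, as were the nuclear RNAs Malat1 at 615, 239 and 386 CPM and Neat1 at 178, 67.6 and 113 CPM. Top2a and Rrm2, genes of proliferating cells, were at 24.8, 79.2 and 83.96 and 10.3, 33.2 and 24.9 CPM and were lowest in replicate 1. Lyz2, the macrophage and granulocyte lysozyme, was highest in replicate 2. The remaining ones were Gm4759 at 66.8, 16.02 and 68.9 CPM, annotated as an unprocessed pseudogene, Eps8l1 at 48.7, 10.7 and 34.02 CPM, Irs2 at 76.03, 38.1 and 137 CPM, Cntrl at 104, 35.6 and 87.7 CPM and Hist1h1c at 94.6, 47.98 and 37.02 CPM.

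Whole gene groups moved between the libraries in the same way. Of the proliferation genes that were on, 28 of 29 were lowest in replicate 1, the lowest library for 36.0% of all coding genes on. Their median offsets from the mean of the libraries were -0.69, 0.39 and 0.21 on the log2(CPM + 1) scale. Of the immediate-early genes that were on, 17 of 21 were highest in replicate 1, against 33.4% of all coding genes on. Fos was at 567, 396 and 427 CPM, Jun at 589.7, 343 and 316 CPM, Egr1 at 181, 93.4 and 95.7 CPM and Nr4a1, a gene induced by receptor signalling, at 189, 87.4 and 144 CPM. The same library was the highest for Nfkbia, an NF-kappaB target, at 476, 266 and 260.1 CPM, and for Ifng, at 264, 187 and 205 CPM. Immediate-early genes also respond to tissue handling and sorting; the labels give no handling times, and their part was not tested. Ribosomal protein genes were lowest in replicate 3 in 71 of 77 cases and nuclear genes of oxidative phosphorylation in 64 of 75, against 27.8% of all coding genes on.

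Transcript length moved with these offsets. Among coding genes of at least 20 CPM, the 228 whose longest transcript is at most 1000 bases had median offsets of 0.08, 0.08 and -0.16, and 91.7% of them were lowest in replicate 3. The 432 whose longest transcript exceeds 8000 bases had median offsets of -0.02, -0.16 and 0.19, and 68.3% were lowest in replicate 2. Bins between these limits lay in order, from -0.07 to 0.08 in replicate 3. Ribosomal protein and oxidative phosphorylation transcripts are short, Macf1, Akap9 and Kmt2d are long, and Gzma, which was lowest in replicate 3, has merged exons of 1006 bases. The part of length in each difference between these libraries was not tested.

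**Figure D5:**
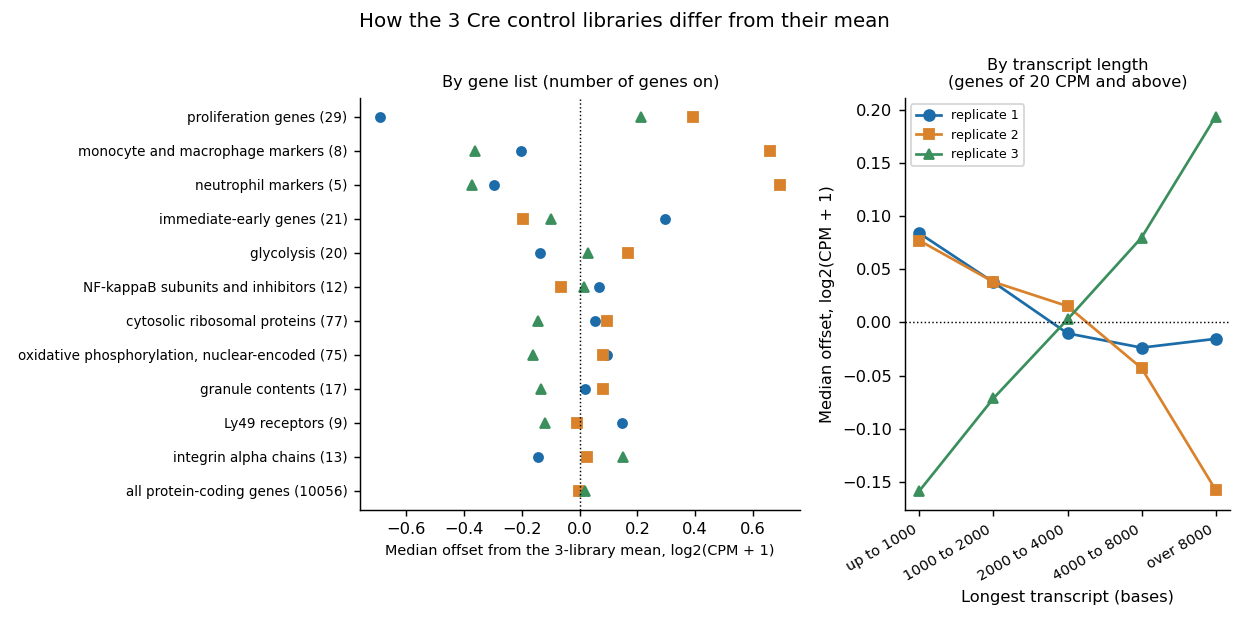
Left, median offset of each library from the 3-library mean of log2(CPM + 1) for gene lists, with the number of genes on in brackets. Right, the same by longest transcript for coding genes of at least 20 CPM; replicate 3 rises from -0.16 to 0.19 with length, and proliferation genes in replicate 1 lie at -0.69.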

How the data were processed

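RNA of the sorted cells was sequenced as single-end reads of 75 bp from a directional library kit, with RNA integrity numbers above 7.0, per the labels' protocols. The authors deposited raw read counts per gene for 53379 genes, with no normalization; STAR, featureCounts and mm10 are named, without versions, per the submitters' processing notes. Neither the labels nor the processing notes give the annotation release, the strand setting or the handling of multiply placed reads, so antisense and overlapping genes cannot be told apart with certainty. Columns were matched to samples by their labels, and 0 columns were of other samples. Every row named a gene.

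Of the 53379 identifiers, 53274 matched GENCODE M21 on GRCm38 without their version. TPM were computed from counts and merged exon lengths; a long rarely used exon lowers a gene's TPM. CPM were scaled with TMM factors in edgeR 4.0.16 (R 4.3.3), which also gave the common dispersion, with a mean of at least 1 CPM; tables were made with pandas 2.3.3 in Python 3.11.15. Log values are log2(CPM + 1). Counting error alone gives a coefficient of variation of 3.19% at the median gene of at least 20 CPM. Between pairs of libraries the chi-square per degree of freedom of the counts was 14.4 to 16.1, so each library was counted as 1 replicate.

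There is 1 group, so no test was run, and lists are described by counts beside those of all coding genes. Members of 72 gene lists (1024 of 1027 symbols found) may be named, with the 30 highest nuclear coding genes outside ribosomal proteins and unnamed models, the 15 most and the 10 least variable genes of at least 20 CPM; Olfr56 was named after its value was seen. The libraries described and the lists were chosen with earlier results of these data known. Families with near-identical members (Klra, Klrb1, Klrc, Bcl2a1, globins, Ccl, Gzm, Scd, H2) are uncertain; the share of a gene's 75-base windows found in other genes' annotated transcripts, a measure added after seeing the data, shows how much. Copies outside annotated transcripts were not searched. Promoter windows came from RefSeq by symbol. On simulated counts of 53274 genes for these 3 libraries, 99.9% of coding genes drawn at 2 TPM or above were called on. Of those at 0.5 TPM or below, 99.9% were called off. Genes drawn between these levels, which lie nearest the threshold, were not scored. Every simulated gene had the same biological coefficient of variation, 12.9%, and no shift was shared by the genes of a library. These shares hold for that setting only. Of genes raised in 1 library, 11 of 67 at 1.5 times, 46 of 67 at 2 times and 66 of 66 at 4 times showed more than a 2-fold range, as did 0.118% of the genes not raised. Alternatives changed the threshold, the length, the scaling, the filter on low counts, the depth and the libraries used. Some genes are not reported here.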

Additional observations from a re-analysis of the deposited data

How the results depend on the processing

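The number of coding genes on, 10056, was 10522 at a threshold of 0.5 TPM, 8462 at 5 TPM, 10150 at 1 CPM without the length and 10033 with the longest transcript as length, and 10105 to 10202 with each library left out. The number of list members on, 731, was 759, 627, 729, 725 and 734 to 739. Chosen after seeing the data, counts thinned to the smallest library gave 10039 coding genes and 730 members, and leaving out genes of mostly shared sequence gave 9862 and 714. Of 71 lists, 11 moved by over 1.5 times at 5 TPM and 1 each at 0.5 TPM, at 1 CPM, without replicate 3 and without genes of shared sequence, where the erythroid list fell to 0. The top 100 genes held 18.8% of counts without mitochondrially encoded genes, and 19.2% to 19.8% with each library left out. The biological coefficient of variation was 12.9% with RLE size factors, 12.9% with total counts and 13.2% with no filter; it was 11.5% to 15.4% with each library left out, the highest being without replicate 3, and the cause was not tested. Markers of other cell types, 89 genes that summed to 1446 CPM ± 264, summed to 1340 to 1593 CPM with each library left out, and the median leading share in glycolysis, 99.4%, was 99.1% to 99.7%. No paired analysis was possible because only the Cre control group is described and it is compared with no other group.

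With 3 libraries no order between close genes can be tested, and genes with few counts near 1 TPM change calls easily: 612 coding genes were split. Levels of genes with largely shared sequence, and zero values among them, remain uncertain. Merged exon lengths make the TPM of genes with rare long exons too low, and transcript length moved with the library offsets.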

Other observations

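Further regulatory groups ranged from wholly on to partly on, against 46.0% of all coding genes. All 12 NF-kappaB subunits and inhibitors were on, with the inhibitors Nfkbia at 667 ± 227 TPM and Tnfaip3 (A20) at 389.9 ± 133 TPM above the subunits Rela at 192 ± 5.7 TPM, Nfkb1 at 93.8 ± 13.2 TPM and Rel at 19.7 ± 2.6 TPM. Of 22 immediate-early genes, 21 were on, with Junb at 4792 ± 576 TPM, Jund at 2254 ± 360.1 TPM, Ier2 at 2069 ± 264 TPM and Dusp2 at 1276 ± 123 TPM; for Jund, 45.9% of 75-base windows are shared. Of 20 interferon-stimulated genes, 18 were on, with a median of 15.8 TPM over those on and Bst2 (tetherin) highest at 91.8 ± 10.8 TPM. Of 25 ETS factors, 15 were on, led by Ets1, Elf4 at 256 ± 29.7 TPM and Elk3 at 186 ± 13.4 TPM, while the myeloid factor Spi1 (PU.1) was at 1.48, 4.11 and 2.32 TPM. Of 8 FOXO and FOXP factors, 5 were on, all between 30.6 and 72.2 TPM on average.

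In biosynthesis, 7 of 10 genes of the pentose phosphate pathway were on, with Taldo1 (transaldolase) at 276 ± 32.9 TPM and G6pdx, its entry enzyme, at 71.9 ± 9.2 TPM. For fatty acid synthesis 9 of 12 were on, with Acly at 293 ± 31.002 TPM and Fasn, the fatty acid synthase, at 82.4 ± 15.6 TPM. Of the stearoyl-CoA desaturases, Scd2 was at 147 ± 12.4 TPM, Scd1 was split at 1.01, 0.792 and 0.563 TPM and Scd3 had 0 counts. Among heat shock genes, Hsp90ab1 was at 1347 ± 68.5 TPM and Hspa8 at 580.1 ± 22.1 TPM, and the stress-induced Hspa1b and Hspa1a, which share most of their sequence, were at 2.42, 6.52 and 1.25 and 0.631, 1.03 and 0.186 TPM.

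Values that stand out are the low counts of Ifngr2 beside the high level of Ifngr1, the detection of Zbtb7b at 57.5 TPM where Cd4 was off, and Cma1 at 954 TPM where the mast cell proteases Cpa3 and Mcpt4 were off.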
